A study of Mus musculus with 8 samples.

Results

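The genes described here build and run the egg's spindle: the Aurora kinases Aurka, Aurkb and Aurkc, the polo-like kinase Plk1, the kinase activators Tpx2 and Bora, the chromosomal passenger subunits Incenp, Birc5 and Cdca8, and the microtubule protein Tacc3. They were found by gene symbol in the platform annotation of the arrays. All 10 genes were on the array, as 24 of 45037 probe sets, a probe set being a group of short DNA probes that reports 1 transcript region. Each array held polysomal mRNA, the mRNA bound by several ribosomes, from a pooled batch of 160 to 500 mouse eggs or embryos. There were 4 batches of one-cell embryos given α-amanitin, which blocks RNA polymerase II, and 4 batches of oocytes arrested in metaphase of the second meiotic division (MII), with no such treatment in their labels. Embryo stage and α-amanitin therefore changed together and cannot be told apart. The series describes the 4 batches of either kind as independent replicates, without saying whether they came from separate animals, so p-values measure the spread between these batches. No label used here gives the strain, the age of the females or the hours after fertilization.

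The mouse egg builds its meiotic spindle without centrioles. Microtubules grow from several microtubule organizing centres and around the chromosomes, and Aurora A and Plk1 drive the fragmentation and spreading of those centres. Tpx2 switches Aurora A on at the spindle, and Bora helps Aurora A to activate Plk1. The chromosomal passenger complex, formed by Incenp, Birc5 (survivin) and Cdca8 (borealin) with an Aurora kinase, sits on chromosomes and later on the central spindle, where it corrects microtubule attachments and guides cytokinesis. Aurora B is its kinase in somatic cells, and Aurora C is a close relative used in germ cells that joins the same subunits. Tacc3, a substrate of Aurora A, crosslinks spindle microtubules together with Ckap5 and clathrin.

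Signals are intensities in arbitrary units that the authors had scaled to the same trimmed mean on every array, so they are relative to the rest of each array, and fewer eggs and less mRNA per egg cannot be told apart. Loading onto ribosomes was not separated from abundance, since total mRNA was not analysed here. Array 1 of the one-cell embryos stood apart. Its median intensity was 71.8, where the other one-cell arrays had 27.8 to 37.9 and the MII arrays 26.9 to 33.8. Its 18 spiked-in hybridization controls averaged 14879 (geometric mean), where the range was 857 to 3718 for the remaining one-cell arrays and 905 to 1364 for MII arrays. Log2 signals correlated at 0.76 to 0.94 between one-cell arrays and at 0.93 to 0.96 between MII arrays. All 10 oocyte markers (such as Zp3, Gdf9 and Bmp15) lay above the median on every array, but not at equal levels. In one-cell embryos 3 of them were called higher, among them Bmp15, and 2 lower, among them Gdf9 (log2 change -2.17 ± 0.43, limma adjusted p = 0.00096). Of 13 cumulus cell markers, 3 lay above the median on all one-cell arrays and 3 on all MII arrays, and their summed intensity was 405 to 1500.1 on one-cell arrays and 524 to 682 on MII arrays. One cumulus marker, Cyp11a1, was called higher in one-cell embryos on its only kept probe set (log2 change 1.26 ± 0.43, limma adjusted p = 0.032). That probe set gave 209, 74, 45.5 and 89.5 in one-cell embryos against 25.5, 27.6, 32.5 and 45.1 in MII oocytes, with its highest value on one-cell array 1. The other Cyp11a1 probe sets lay under the array median on every array and were not tested. The part of this marker in the changes below was not tested. Of 6 blood and immune markers, 1 lay above the median on all one-cell arrays and 2 on all MII arrays, with sums of 167 to 533.5 on one-cell arrays and 238.5 to 275 on MII arrays.

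The spindle and passenger genes did not move together. Of 24 probe sets, 21 passed the filter on dim signals, which asked for a signal over the median of the same array on 4 or more of the 8 arrays. Of these, 7 were higher and 2 lower in one-cell embryos and 12 did not pass the test (limma, Benjamini-Hochberg adjusted p under 0.05 over all 23336 probe sets kept), a share of 42.9% against 32.1% of all probe sets kept (19.3% higher and 12.8% lower). After quantile normalization 6 of the 21 were called, beside 29.9% of all, and after centring each array on its median 4 of the 21, beside 24.8%, so the members' share was not above that of all probe sets under those scalings. The balance of all calls also turned, with 4511 higher and 2982 lower as deposited but 3396 higher and 3576 lower after quantile normalization and 2937 higher and 2841 lower after centring. Taking each gene's brightest kept probe set, 5 genes were higher (Tacc3, Birc5, Bora, Incenp and Aurkb) and 1 was lower (Aurkc). Aurka, Plk1, Cdca8 and Tpx2 did not pass. These 6 of 10 stand beside 35.3% of 12359 genes (20.6% higher and 14.8% lower). Bright probe sets were called more often: of 11803 over their array's 75th percentile on 4 or more arrays, 53.0% were called. The shares of the members are not matched for brightness. The groups did not overlap for 9 of the 21 probe sets, against 32.6% of all probe sets kept, and for 6 of the 10 genes, against 35.7% of all genes. The median change of the 10 genes was 0.50 on the log2 scale, against 0.17 for all genes. A log2 change is the mean log2(intensity + 10) of one-cell embryos less that of MII oocytes, given with its limma SE. The added 10 makes it too small for dim mRNAs.

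**Figure D1:**
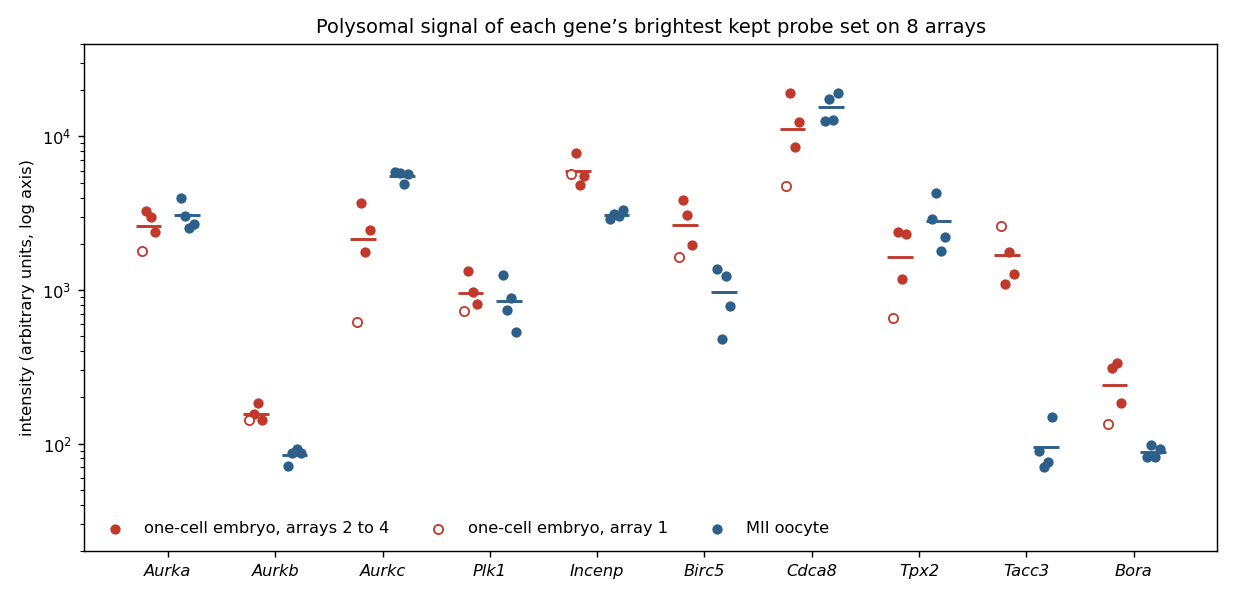
Intensity (log axis, arbitrary units) of the brightest kept probe set of each of the 10 genes, with 1 point per array and a bar at the group mean; one-cell embryos are red (array 1 open) and MII oocytes blue. The groups lie apart for Aurkb, Aurkc, Incenp, Birc5, Tacc3 and Bora and overlap for Aurka, Plk1, Cdca8 and Tpx2.

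The RefSeq promoter table (GRCm38.p6) held 6 of the 10 genes. Promoter stretches are shown for 4 members, Tacc3 and Birc5 with the largest rises and Aurkc and Cdca8 with a probe set called lower. Whether promoter letters bear on the polysomal signal, here in embryos given α-amanitin, was not tested. Each is the longest stretch of the 250 bases before the start that lies outside every annotated gene: chr5:33657978-33658127 (+ strand) for Tacc3, chr11:117848987-117849236 (+ strand) for Birc5, chr7:6995135-6995346 (+ strand) for Aurkc and chr4:124936918-124936983 (- strand) for Cdca8. Capitals mark the CCAAT box (CCAAT) and the Sp1 site (GGGCGG) on either strand.
Tacc3: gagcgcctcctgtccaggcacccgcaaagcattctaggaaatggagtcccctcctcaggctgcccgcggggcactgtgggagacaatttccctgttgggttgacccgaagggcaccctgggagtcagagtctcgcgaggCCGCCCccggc
Birc5: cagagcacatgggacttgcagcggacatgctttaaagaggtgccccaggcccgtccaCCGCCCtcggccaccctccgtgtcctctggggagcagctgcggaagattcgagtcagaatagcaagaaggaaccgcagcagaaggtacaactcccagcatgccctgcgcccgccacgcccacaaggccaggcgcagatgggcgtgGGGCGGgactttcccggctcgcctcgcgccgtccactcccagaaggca
Aurkc: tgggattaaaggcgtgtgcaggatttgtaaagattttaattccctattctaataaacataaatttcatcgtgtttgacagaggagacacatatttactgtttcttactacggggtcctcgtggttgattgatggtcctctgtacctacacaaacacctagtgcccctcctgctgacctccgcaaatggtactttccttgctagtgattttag
Cdca8: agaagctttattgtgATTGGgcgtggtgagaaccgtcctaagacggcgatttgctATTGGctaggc
The Tacc3 stretch was 66.0% G or C and the Birc5 stretch 65.6%, and they held 1 and 2 Sp1 matches. The Aurkc stretch was 41.5% G or C with no capital letters, and that of Cdca8 was 50% with 2 CCAAT boxes. Over the full 250 bases, which the shares below refer to, Aurkc and Tacc3 held 1 Sp1 site each and Birc5 held 2, while Cdca8 held 3 CCAAT boxes. Plk1 and Aurka, which did not pass the test, were in the promoter table but are not shown. Plk1 held 1 Sp1 site and 1 CCAAT box and Aurka 2 CCAAT boxes. Aurkb, Incenp and Bora, called higher on their brightest probe sets, and Tpx2 were not in that table. The cell cycle homology region is a motif known from promoters of genes used in G2 and mitosis. Its letters TTTGAA (both strands) were absent from the full 250 bases of all 6 genes. Other forms of the motif, and the bases after the start, were not searched, so this does not show that the genes lack it. TTTGAA occurred in 16.3% of 27025 promoters of that length, the CCAAT box in 34.5% and the Sp1 site in 32.9%.

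Among the kinases, the germ-cell kinase Aurkc fell. Its intensity was 623, 3692, 1773 and 2469 on one-cell arrays 1 to 4, against 5852, 5810.4, 4869 and 5682 on MII arrays 1 to 4. Every one-cell array lay below every MII array, and array 1 was the lowest of the 8. The means were 2139 ± 1285 in one-cell embryos and 5553 ± 462 in MII oocytes (SD, n = 4 each), a log2 change of -1.63 ± 0.44 (limma, adjusted p = 0.00868). Without one-cell array 1 the change was -1.13 ± 0.27 (limma, adjusted p = 0.0048), and with the hybridization controls as a covariate it was -1.0 ± 0.46 and no longer passed (limma, adjusted p = 0.127). Aurkc is represented by 1 probe set.

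Aurkb, the somatic counterpart, rose on its brighter probe set, which lay above the array median on all 8 arrays. It gave 143, 155.5, 185 and 142 on the one-cell arrays, against 71.6, 86.8, 92.7 and 87.4 on the MII arrays, so the groups lay apart. The log2 change was 0.81 ± 0.28 (limma, adjusted p = 0.0374). The other Aurkb probe set also had groups that did not overlap (64.3 to 102 in one-cell embryos, 36.7 to 52.9 in MII oocytes) but did not pass, at 0.68 ± 0.33 (limma, adjusted p = 0.138). The rise was not called after quantile normalization (0.27 ± 0.27, limma adjusted p = 0.506) or with each array centred on its median (0.49 ± 0.32, limma adjusted p = 0.291). It also lost its call with the replicate number as a block (limma, adjusted p = 0.0778) and without any 1 of the other 7 arrays (limma, adjusted p from 0.0632 to 0.104), while it stayed called without one-cell array 1.

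Aurka, the spindle-pole kinase, did not differ beyond the spread between batches. It gave 1804, 3289.6, 3003 and 2392 in one-cell embryos and 3951, 3046, 2517 and 2709.6 in MII oocytes, with overlapping groups. The log2 change was -0.24 ± 0.31, with a 95% confidence interval from -0.90 to 0.43 (limma, adjusted p = 0.631), and it was positive after quantile normalization (0.25 ± 0.24). A second Aurka probe set lay under the array median on all 8 arrays and was not tested. Plk1, the polo kinase of mitotic entry, gave 729, 1330.2, 968 and 815 in one-cell embryos and 1248, 746, 887 and 535 in MII oocytes. Its groups overlapped as well, at 0.19 ± 0.31 with an interval from -0.47 to 0.86 (limma, adjusted p = 0.700).

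The kinase activators gave mixed readings. Bora rose on its brighter probe set, with 135, 309, 337 and 183 in one-cell embryos against 81.3, 98.3, 82.3 and 92.7 in MII oocytes. All one-cell arrays lay above all MII arrays, and the log2 change was 1.26 ± 0.32 (limma, adjusted p = 0.00658). The other Bora probe set did not follow it: 45.3, 48.8, 108 and 197 in one-cell embryos against 105, 169.5, 70.9 and 109 in MII oocytes, a change of -0.33 ± 0.42 (limma, adjusted p = 0.616). Averaged over both, Bora did not pass (0.47 ± 0.30, limma adjusted p = 0.266), nor did the brighter one after quantile normalization (0.69 ± 0.38, limma adjusted p = 0.196) or centring (0.94 ± 0.44, limma adjusted p = 0.138), so the direction of Bora is not settled.

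Tpx2, the Aurora A activator, had 4 kept probe sets, and none passed. The brightest gave 655, 2386, 1172 and 2323 in one-cell embryos against 2884, 4295, 1801 and 2223 in MII oocytes, at -0.88 ± 0.41 (limma, adjusted p = 0.121). The other 3 probe sets had positive values between 0.36 and 0.79, and the mean of all 4 was 0.21 ± 0.21 (limma, adjusted p = 0.510). On one-cell array 1 the brightest Tpx2 probe set was the lowest of the 8 arrays, while another Tpx2 probe set read 623 there, where one-cell arrays 2 to 4 gave 158 to 302 and MII arrays gave 154 to 222.

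The 3 shared passenger subunits did not move as one: Birc5 and 1 Incenp probe set rose, while 1 Cdca8 probe set fell. That Cdca8 call held with the deposited scaling but not under the other scalings given below. Birc5 (survivin) gave a rise, with 1635, 3829, 3087 and 1972.5 in one-cell embryos and 1367, 477, 1243 and 786 in MII oocytes. The lowest one-cell value stood above the highest MII value, and the log2 change was 1.46 ± 0.37 (limma, adjusted p = 0.0063). After centring the rise was 1.15 ± 0.56 and not called (limma, adjusted p = 0.153), while after quantile normalization it was 1.82 ± 0.33 and called.

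Incenp, the scaffold that binds the kinase, rose on its brightest probe set: 5724, 7762, 4836 and 5498 in one-cell embryos against 2921, 3121, 3034 and 3308 in MII oocytes. The groups lay well apart, with means of 5955 ± 1262 in one-cell embryos and 3096 ± 163 in MII oocytes (SD, n = 4 each) and a log2 change of 0.92 ± 0.31 (limma, adjusted p = 0.0313). That probe set and the called one of Aurkb are of the x type, in which some probes can match other transcripts. The next Incenp probe set gave 417, 639.6, 641 and 528 in one-cell embryos against 485, 248, 397 and 257 in MII oocytes. It had the same sign without passing (0.70 ± 0.30, limma adjusted p = 0.0835). The third did not pass either (0.26 ± 0.35), and 2 more lay under the median on every array. The Incenp call was lost after centring (0.60 ± 0.42, limma adjusted p = 0.318), with the control covariate (limma, adjusted p = 0.0623) and without 6 of the 8 arrays in turn (limma, adjusted p from 0.0622 to 0.0895), but not without one-cell array 1.

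Cdca8 (borealin) had 3 kept probe sets, each with a lower mean in one-cell embryos. Its dimmest one fell, with 391, 1182, 557 and 728 in one-cell embryos against 2524, 1151, 1703 and 861 in MII oocytes. The groups overlapped through one-cell array 2, and the log2 change was -1.11 ± 0.38 (limma, adjusted p = 0.0335). The middle one gave 1489.8, 10056.5, 4354 and 4761 in one-cell embryos against 10125, 9807, 9494 and 8569 in MII oocytes, and narrowly missed the threshold (-1.17 ± 0.47, limma adjusted p = 0.0673). The brightest gave 4776, 19041, 8518 and 12378.5 in one-cell embryos against 12595, 17445.5, 12728 and 19254 in MII oocytes (-0.62 ± 0.45, limma adjusted p = 0.336). On all 3, array 1 was the lowest and array 2 the highest of the one-cell arrays. Without array 1 the changes were -0.87 ± 0.36, -0.68 ± 0.30 and -0.27 ± 0.30 from the dimmest to the brightest, and none passed (limma, adjusted p = 0.075, 0.0944 and 0.545). The dimmest also lost its call after quantile normalization (-0.99 ± 0.39, limma adjusted p = 0.0725) and after centring (-1.43 ± 0.55, limma adjusted p = 0.0762). With the control covariate it was -0.77 ± 0.44 and not called (limma, adjusted p = 0.231).

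**Figure D2:**
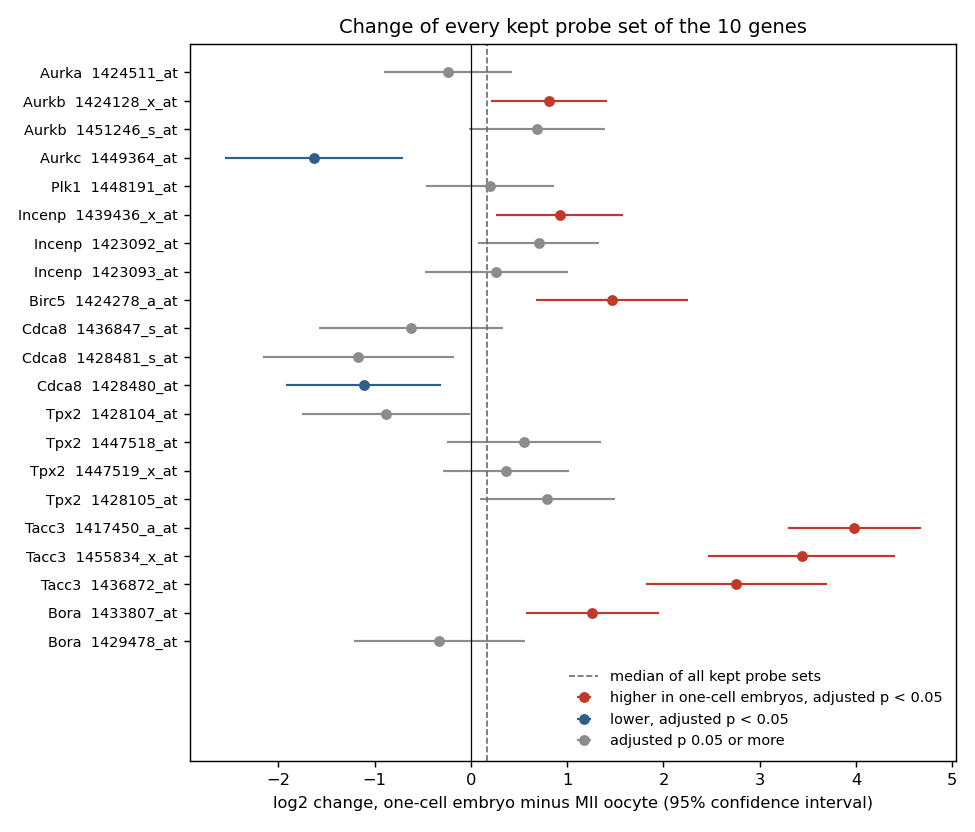
Log2 change (one-cell embryo minus MII oocyte) of the 21 kept probe sets with its 95% confidence interval, from limma; red is higher and blue lower at an adjusted p under 0.05, grey did not pass, and the dashed line is the median of all kept probe sets (0.17). All 3 Tacc3 probe sets lie far to the right, at 2.76 to 3.98, while the probe sets of Tpx2 and those of Bora lie on both sides of 0.

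Tacc3 changed most, and all 3 of its probe sets agreed in direction. The brightest gave 2604, 1101, 1766 and 1279.9 in one-cell embryos against 89, 70, 75.3 and 148 in MII oocytes. The lowest one-cell array was several times the highest MII array. The means were 1688 ± 672 in one-cell embryos and 95.6 ± 35.9 in MII oocytes (SD, n = 4 each), a ratio of 17.7, and the log2 change was 3.98 ± 0.33 (limma, adjusted p = 3.56e-07). The second probe set gave 585, 291, 412 and 329 in one-cell embryos against 8.4, 9.2, 59.4 and 66.1 in MII oocytes (3.44 ± 0.46, limma adjusted p = 3.11e-05), and the third 244, 86.4, 115.5 and 183 in one-cell embryos against 7.5, 37.4, 9.5 and 7.5 in MII oocytes (2.76 ± 0.45, limma adjusted p = 0.000174). The second lay above the array median on 2 and the third on 1 of the 4 MII arrays, so their oocyte level and their folds are poorly set. The second is also of the x type, and the annotation gives it the same source sequence as the third, so the 3 are not independent readings. All 3 were called under every alternative tried, and the brightest stayed between 3.53 and 4.19.

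Pairs of members were then set against each other within each array, to ask whether partners changed unequally. The log2 ratio of their brightest probe sets cancels a common scale factor, and its group difference does not compare the levels of the genes. Each ratio was compared between groups by a two-sided exact permutation test, whose smallest p with 4 against 4 arrays is 0.0286, and 10 of 14 pairs reached it (adjusted p = 0.04 over the 14). After Benjamini-Hochberg adjustment over 14 pairs, none passes unless at least 9 reach that smallest p. For Aurkc over Aurkb, Incenp over Aurkc and Birc5 over Aurkc, the groups of both genes already lay apart in opposite directions. Those ratios therefore had to reach the smallest p and add nothing to the results of the single genes, although they count toward the 9.

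Within the Aurora family, Aurkc over Aurka lay at -1.52, 0.17, -0.76 and 0.05 on the one-cell arrays and at 0.57, 0.93, 0.95 and 1.07 on the MII arrays. The difference was -1.39, with no overlap (exact permutation p = 0.0286, adjusted p = 0.04). Aurkc over Aurkb differed by -2.44 and Aurka over Aurkb by -1.05, also without overlap, but the Aurka over Aurkb difference vanished after quantile normalization (-0.019, exact permutation, adjusted p = 0.857). For the passenger complex, Birc5 over Aurkc differed by 3.09, Incenp over Aurkc by 2.55 and Cdca8 over Aurkc by 1.01, each without overlap and each still at the smallest p without one-cell array 1 (2.79, 2.06 and 0.86). Cdca8 over Aurkb differed by -1.43. Incenp over Aurkb (0.11) and Birc5 over Aurkb (0.65) overlapped and did not pass (exact permutation, adjusted p = 0.600 and 0.233), but after quantile normalization both did, at 1.11 and 1.55 (exact permutation, adjusted p = 0.0444).

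Against Aurka, Tacc3 differed by 4.22 and Bora by 1.5, while Tpx2 (-0.64) and Plk1 (0.43) did not pass (exact permutation, adjusted p = 0.246 and 0.145). Bora over Plk1 differed by 1.07. With the probe sets of each gene averaged, 8 pairs were at the smallest p and none passed, and Bora over Aurka (0.70) and Bora over Plk1 (0.27) were not among the 8.

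**Figure D3:**
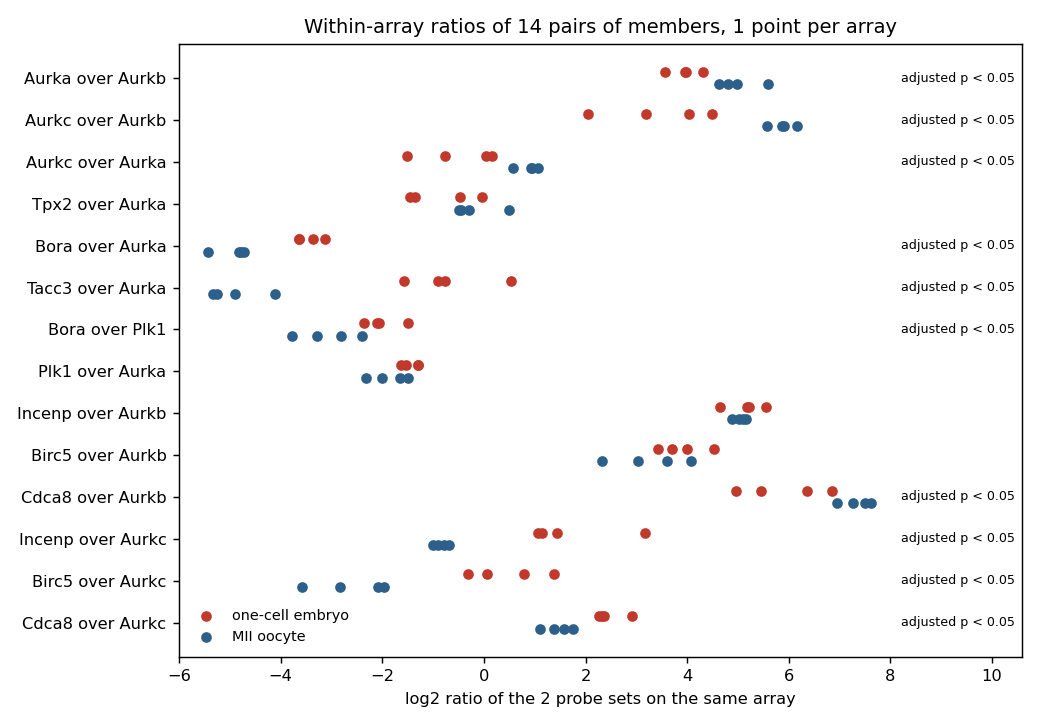
Log2 ratio of the 2 brightest kept probe sets of each of 14 pairs on the same array, 1 point per array, one-cell embryos in red above MII oocytes in blue; pairs past the exact permutation test after adjustment are marked at the right. The 10 marked pairs have no overlap between the groups, with the widest gap for Tacc3 over Aurka.

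Scaling decided several calls. Over all kept probe sets the median change was 0.17 with the deposited scaling, -0.12 after quantile normalization, -0.15 after centring and 0.03 without one-cell array 1. Relative to that median, Tacc3 stood at 3.81 as deposited and 4.08 after quantile normalization, Birc5 at 1.29 and 1.94, Incenp at 0.75 and 1.5, Bora at 1.09 and 0.81, Aurkb at 0.64 and 0.39, and Aurkc at -1.80 and -1.11. Aurka changed sign between them, at -0.41 and 0.37. Aurkc and Tacc3 were the 2 genes called as deposited, after quantile normalization, after centring and without array 1.

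**Figure D4:**
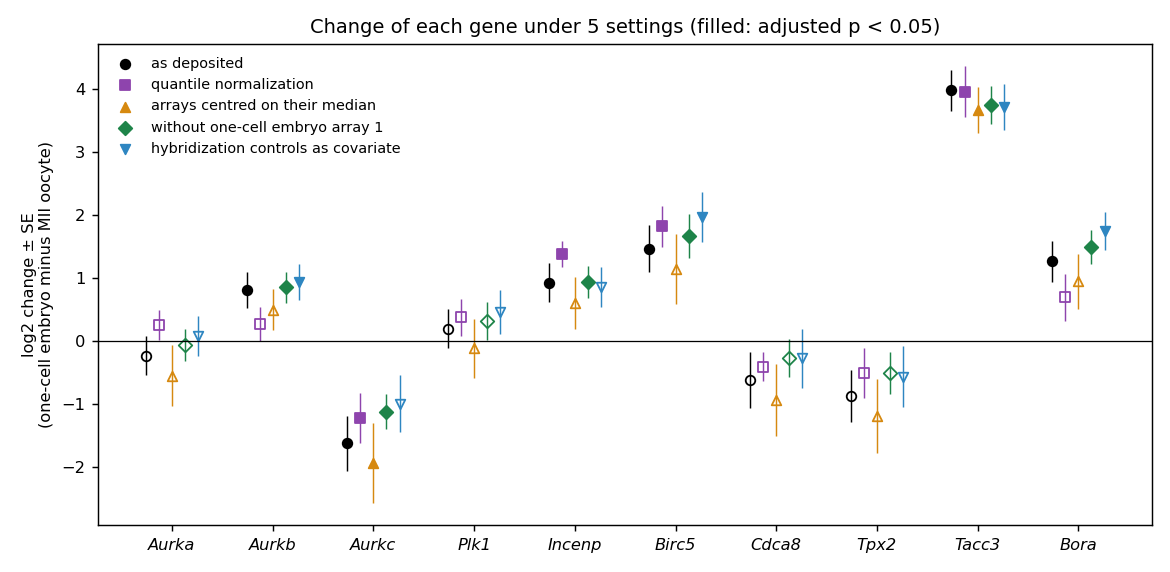
Log2 change ± SE (one-cell embryo minus MII oocyte) of the brightest kept probe set of each gene under 5 settings, filled where the limma adjusted p was under 0.05. Tacc3 is filled throughout, Aurkc in all but the setting with the hybridization controls as a covariate, and Aurka, Plk1, Cdca8 and Tpx2 in none.

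By the rule of highest Pearson correlation over the 8 arrays among 12358 other genes, the profiles most like that of Tacc3 were those of Gtf2f1 (r = 0.995), Elp2 (0.995) and Dnajc11 (0.995). Those most like Aurkc were Cnppd1 (0.994), Ahsa1 (0.994) and Birc3 (0.993). For Aurkb they were Per3 (0.996), Olfr976 (0.994) and Ap1s3 (0.991), and for Birc5 Eef1e1 (0.985), Rbm39 (0.981) and Parl (0.977). Incenp was most like 2210409E12Rik (0.981), Sult5a1 (0.975) and Naca (0.973), and Bora most like Bank1 (0.989), Lhx8 (0.985) and Jade2 (0.984). All 8 points share the step between the groups, so these values are a description only.

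The wider spindle machinery also held rises and falls. Over 6 lists of spindle genes other than the 10 members, 117 genes were measured, of which 27 were higher and 34 lower in one-cell embryos and 56 did not pass. That is 52.1%, beside 35.3% of all genes, with a median of -0.20 against 0.17, and the median of all 10 members was 0.50. With each array left out in turn, 24 to 27 were higher and 23 to 37 lower. The excess of lower genes was lost without MII array 1 (24 higher, 24 lower) or MII array 3 (24 higher, 23 lower).

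Spindle motors had the lowest list median (-0.96), with 3 of 14 measured genes higher and 8 lower. Kif2c, a microtubule depolymerase and Aurora B substrate, fell by 1.75 on the log2 scale on its brightest probe set, although its other 3 did not pass. Kif18a (-1.51 ± 0.37) and the kinetochore motor Cenpe (-1.45 ± 0.36) fell too. Kif18b (2.12 ± 0.30), the dynactin subunit Dctn1 (1.36 ± 0.26) and the dynein heavy chain Dync1h1 (0.83 ± 0.30) rose.

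Of 26 microtubule-associated proteins, 6 were higher and 7 lower, with a median of -0.51. Dlgap5 (3.00 ± 0.37), a spindle protein phosphorylated by Aurora A in human cells, and Gtse1 (2.49 ± 0.39) rose. Clasp1 rose on its brightest probe set (3.12 ± 0.35), while none of its other 3 passed and the mean of all 4 was 0.74. Prc1, which bundles the central spindle, fell (-1.53 ± 0.43), as did the cytokinesis protein Anln (-1.68 ± 0.39) and Map4 (-1.47 ± 0.39), each on all of its kept probe sets.

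Of 20 γ-tubulin ring and augmin genes, 1 rose, the augmin subunit Haus7 (2.46 ± 0.46, above the array median on 2 of 4 MII arrays), and 3 fell. The falls were those of Cep192 (-1.74 ± 0.31), the scaffold that brings Aurora A and Plk1 to centrosomes, Haus4 (-1.07 ± 0.35) and Akap9 (-1.29 ± 0.27, with 1 of its 5 probe sets called in the other direction). The list median was 0.19. Of 9 genes of the Ran pathway, which releases Tpx2 around chromosomes, 2 rose and 3 fell, with a median of -0.00069. Kpna2, an importin α, rose by 3.20 ± 0.40 and Ranbp1 by 0.86 ± 0.28. Rcc1, the chromatin-bound exchange factor that charges Ran, fell (-1.86 ± 0.55), as did Ranbp2 (-1.40 ± 0.35). The size of the Rcc1 fall leans on one-cell array 1, which read 33.4, under that array's median. One-cell arrays 2 to 4 gave 334 to 461 for Rcc1, and the MII arrays 769 to 881. Kpnb1, importin β, fell on its brightest probe set (-1.63 ± 0.26) but its other 3 were all called higher, so its direction is not settled.

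Of 31 regulators and targets of the Aurora and polo kinases, 9 were higher and 7 lower, with a median of -0.16. Bub1, the kinase whose histone mark helps to place the passenger complex, rose on 1 of 2 probe sets (2.70 ± 0.34). The phosphatase subunit Ppp2r5d rose on its only kept probe set (2.34 ± 0.29) and the kinase Nek2 on 2 of 3 (2.20 ± 0.35 on the brightest). The centromeric histone Cenpa fell (-1.65 ± 0.34), and so did Fbxo43, the inhibitor that holds the egg in metaphase (-1.66 ± 0.50), which lay above the array median on 2 of the 4 one-cell arrays. Arpp19 fell on its brightest probe set (-1.63 ± 0.39), but 2 others were called higher. Among 21 spindle checkpoint and kinetochore genes, which include Bub1 and others of the list before, 8 were higher and 6 lower, with a median of 0.08. Zwilch (3.17 ± 0.32) and Zwint (4.15 ± 0.36) rose, the second on 1 of 4 probe sets, whose signal lay above the array median on 0 of 4 MII arrays. Bub1b (-2.08 ± 0.47), Ndc80 (-1.72 ± 0.36) and Dsn1 (-1.25 ± 0.33) fell.

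**Figure D5:**
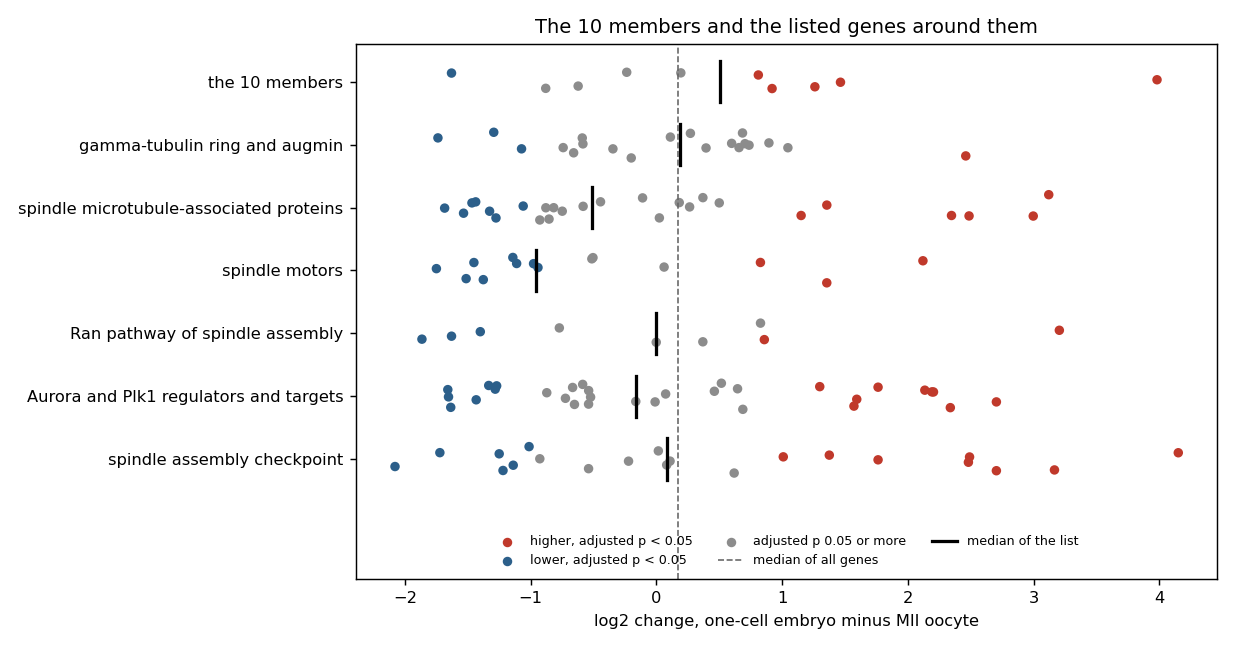
Log2 change (one-cell embryo minus MII oocyte) of each measured gene, by its brightest kept probe set, for the 10 members and 6 lists of spindle genes; red is higher and blue lower at a limma adjusted p under 0.05, grey did not pass, black bars are list medians and the dashed line is the median of all genes (0.17). Every list holds points on both sides of 0, and the spindle motors have the lowest median (-0.96).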

How the data were processed

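The values the authors deposited are linear intensities of one-colour arrays, 1 for each probe set. Biotin-labelled RNA amplified in 2 rounds was hybridized, per the labels, which name neither the array software nor the scaling. On the values themselves, the mean of the deposited intensities after trimming 2% of the probe sets at either end was 150.001 to 150.002 on all arrays.

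From these, log2(intensity + 10) was computed without further normalization. The 64 control probe sets were left out, and 23336 of 45037 others were kept (above the array's median on at least 4 of 8 arrays). The contrast of one-cell embryos over MII oocytes came from limma 3.58.1 under R 4.3.3 (variance trend, two-sided, Benjamini-Hochberg). Genes were named from the platform annotation, with symbols updated through RefSeq (18145 of 18193 found in its table), and stood for by their brightest kept probe set. All 10 members were named, then the 3 largest rises and falls past the test in each list and the 3 profiles most like each called member. Members and lists were chosen with earlier results of these data known. In 5 simulated runs over the same 23336 probe sets, with 200 changed in each, 45.6% of 4-fold and 1.8% of 2-fold changes were called. Of the simulated calls, 2.47% were false. In the data 7493 probe sets were called, and more calls make the adjusted threshold less strict. The simulated rates therefore do not describe this comparison. The alternatives covered scaling, offset, filter, variance model, array weights, replicate block, control covariate, left-out arrays and averaged probe sets.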

Additional observations from a re-analysis of the deposited data

Results flagged for a closer look

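Among 42 sets of 4 arrays (21 kept probe sets in either group), 2 held an array far from the other 3 by Dixon's gap, where chance marks about 1 in 20. Aurkc read 4869 on MII array 3, where the 3 others gave 5682 to 5852. The third Tacc3 probe set read 37.4 on MII array 2, where the 3 others gave 7.5 to 9.5, under their array medians. Neither value reached the one-cell arrays.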

How the results depend on the processing

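The number of arrays, 4 a group, limits the precision, and Aurkb and Bora lost their calls under both quantile normalization and centring, Birc5 and Incenp under centring. Centring each array on its median left 4 of 9 member probe sets called (3 higher, 1 lower) and 2 of 6 genes (1 higher). Quantile normalization left 1 lower probe set and 3 higher genes, dropping the filter 1 and 3. Omitting the variance trend left 1 lower probe set, as did quantile normalization without one-cell array 1, which was chosen after the data were seen. With the control signal as a covariate 0 probe sets and 0 genes were called lower (limma at the same threshold). Leaving out each array in turn gave 1 to 3 lower probe sets and 3 to 5 higher genes. Ratio pairs past the exact permutation test numbered 0 with averaged probe sets or an offset of 50, with 8 pairs at the smallest p in both, and 0 to 9 with 1 array left out (chosen after the data were seen), where leaving out MII array 1, 2 or 4 gave 0 with 7, 7 and 8 pairs at the smallest p. The replicate numbers do not pair the arrays (correlations of deviations from the group means from -0.16 to 0.14). With them as a block 9 member probe sets and 5 genes were called, and 0 ratio pairs passed an exact sign-flip permutation test, which cannot go below p = 0.125.

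Signs changed for values that did not pass. Aurka was 0.25 after quantile normalization, 0.28 with that and without one-cell array 1, and 0.077 with the covariate. Plk1 was -0.12 after centring and -0.0050 to 0.40 with 1 array left out. The third Incenp probe set was -0.18 after quantile normalization and -0.052 after centring. Of the less bright Tpx2 probe sets, 2 were -0.25 and -0.11 with the covariate, and -0.21 and -0.16 after quantile normalization without array 1. With averaged probe sets Tpx2 was 0.21, Tpx2 over Aurka 0.44 and Incenp over Aurkb -0.12. The cause was not tested. The wider lists held 61 called genes as deposited and 47 to 62 under the alternatives run for them (quantile normalization, with and without one-cell array 1, and each array left out).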

Other observations

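Some listed genes close to the members, named after their values were seen, are worth giving. Cdc25b, a phosphatase that Aurora A phosphorylates, rose (585 in one-cell embryos against 119.5 in MII oocytes, mean of 4 arrays each, log2 change 2.19 ± 0.26), as did Fzr1, the activator under which the anaphase-promoting complex degrades Aurora kinases and Plk1 in somatic cells (2.14 ± 0.38). Fzr1 lay above the array median on 1 of the 4 MII arrays, so its oocyte level and the size of its change are poorly set. The centromere protector Sgo2a fell (-1.33 ± 0.32), and so did the motors Kif11 (-0.98 ± 0.33) and Kifc1 (-1.14 ± 0.40), by their brightest probe sets in limma. The groups overlapped for both motors, and Kif11 was called on 1 of its 3 kept probe sets, whose mean change was -0.59. The partners of Tacc3 did not pass beside its rise: Ckap5 was at -0.75 ± 0.30 (limma, adjusted p = 0.0648) and the clathrin heavy chain Cltc at 0.02 ± 0.33 (limma, adjusted p = 0.97). Haspin, whose histone mark recruits the passenger complex, was at 0.52 ± 0.37 (limma, adjusted p = 0.333).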
